A study of Mus musculus with 6 samples.

Results

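Satellite cells are the resident stem cells of skeletal muscle, and 10 genes used to recognise them were examined in chromatin accessibility profiles of mouse thigh muscle with and without Prr14. The genes were Pax7, Pax3, Cdh15, Calcr, Vcam1, Sdc4, Megf10, Spry1, Notch3 and Heyl. Every accessible region (peak) that the deposited table assigns to one of these gene names was taken, which gave 62 of the 75134 peaks in the table and 10 of its 16065 genes. PRR14 is a protein of the nuclear lamina that ties heterochromatin to the nuclear edge, and the design asks how open chromatin in muscle differs when the gene is lost. The libraries were made by ATAC-seq, in which the transposase Tn5 inserts adapters into open DNA, on nuclei from frozen quadriceps femoris, the knee extensor at the front of the thigh. There were 3 Prr14-KO libraries (replicates 4, 5 and 7) and 3 Prr14-WT libraries (replicates 3, 4 and 8). The labels used here do not state age, sex, strain, any treatment, or which part of Prr14 was deleted or in which cells. Nor do they state whether each library is a separate mouse. The p-values therefore set the difference between groups against the spread between these libraries, which may be technical in part.

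A satellite cell lies between a muscle fibre and its basement membrane and stays out of the cell cycle until the muscle is injured or grows. PAX7 is the transcription factor that defines these cells, Notch signalling and the calcitonin receptor help to hold them in quiescence, and cadherins and other surface proteins fix them to the fibre. Satellite cell nuclei are a small minority in whole muscle, where fibre nuclei dominate, so a difference in the number of satellite cell nuclei and a difference in accessibility per nucleus cannot be told apart in these libraries. Pax7, Pax3 and Calcr are largely restricted to satellite cells in adult muscle, whereas Vcam1, Sdc4, Spry1, Notch3 and Heyl are also used by vessel wall, endothelial or connective tissue cells.

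Pax7 stood out among the 10 genes, because chromatin within its introns was more accessible in the Prr14-KO libraries. Heyl, a transcriptional repressor switched on by Notch, had 3 more accessible peaks, and Sdc4, a heparan sulphate proteoglycan, and Notch3, a Notch receptor, had 1 each. No peak of Pax3, Cdh15, Calcr, Vcam1, Megf10 or Spry1 passed the test in either direction. Of the 62 peaks, 60 held enough counts to be tested, and 9 were higher, 0 lower and 51 without a call at an adjusted p below 0.05. All adjusted p-values are from the quasi-likelihood test of edgeR with Benjamini-Hochberg adjustment over all 73896 tested peaks, unless another is named. Over all tested peaks, 2.77% were called higher and 4.23% lower, against 15% and 0.0% of the tested marker peaks. By unadjusted p under 0.05, 13 marker peaks (21.7%, against 7.05% of all peaks) were higher and 2 (3.33%, against 9.92%) lower. DESeq2 called 9 higher and 0 lower. The fold changes of the marker peaks were evenly split, with 30 above and 30 below 0, and their median log2 fold change was 0.01 beside -0.01 over all peaks. All 3 Prr14-KO libraries lay above all 3 Prr14-WT libraries at 11 marker peaks (18.3%, against 9.17% of all peaks) and below them at 6 (10%, against 11.2%). Without the Pax7 peaks, 5 of 49 tested peaks were higher.

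**Figure D1:**
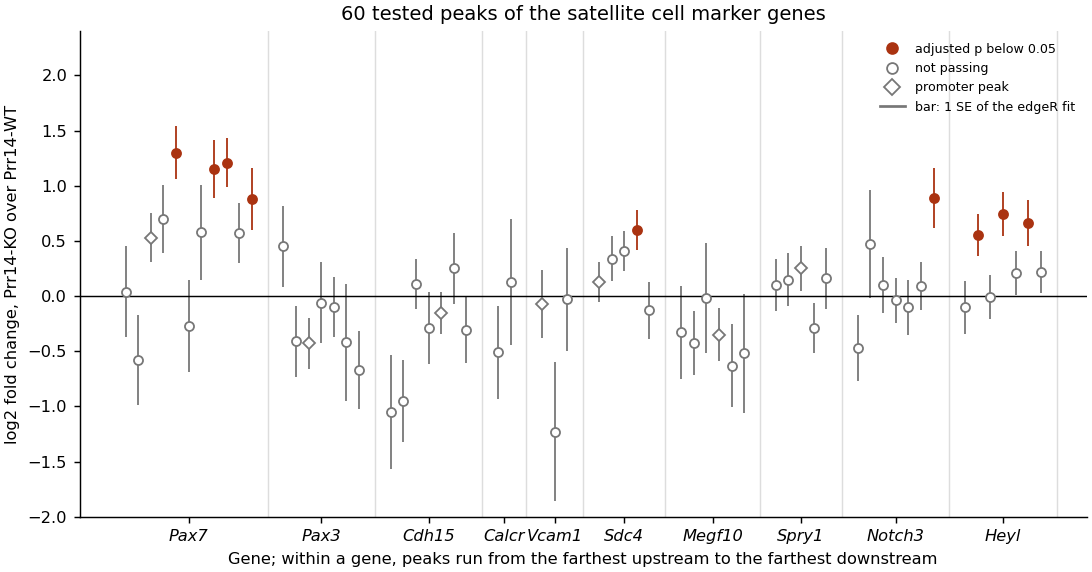
Log2 fold change (Prr14-KO over Prr14-WT, vertical axis) of the 60 tested peaks, grouped by gene along the horizontal axis; bars are 1 SE, filled points passed at an adjusted p below 0.05 and diamonds are promoter peaks. The 9 filled points belong to Pax7 (4), Sdc4 (1), Notch3 (1) and Heyl (3), and no promoter peak is filled.

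The 9 higher peaks lay away from the start sites, but the promoter peaks were too few to read this as a trait of the markers. None of the 9 tested promoter-class peaks of the marker genes passed. Over all promoter-class peaks 1.58% were higher and 1.49% lower, so no call among 9 peaks is the usual outcome. Of the 25 tested peaks annotated to introns, of the marker or of a neighbouring gene model, 6 were higher, against 3.12% of all intron peaks. Of the 18 intergenic peaks, 2 were higher, against 3.06%, and of the 8 peaks in exons or untranslated regions 1 was higher, against 3.55%. When only the promoter peak nearest the start site was kept for each gene, 0.894% of 12870 genes were higher and 0.699% lower. None of the 7 marker genes with such a peak was among them, which is again the usual outcome at these shares. Calcr, Notch3 and Heyl had no peak within 3 kb of the annotated start site. Peaks far from a gene carry its name because the authors' table assigns them to it, and no measurement here ties such a peak to that gene's activity.

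Levels are given as counts per 1000000 counts in peaks (CPM) scaled with TMM, in the order Prr14-WT replicates 3, 4 and 8, then Prr14-KO replicates 4, 5 and 7. To compare genes, the promoter peaks were set on a per-kilobase scale. In the Prr14-WT libraries their mean level was 22.6 CPM per kb at Cdh15, 21.7 at Sdc4, 14.9 at Megf10, 13.1 at Pax3, 12 at Spry1, 6.27 at Pax7 and 5.52 at Vcam1. In the Prr14-KO libraries the order was Sdc4 at 23.8 CPM per kb, Cdh15 at 20.4, Spry1 at 14.2, Megf10 at 11.8, Pax3 at 9.71, Pax7 at 8.99 and Vcam1 at 5.19. Among the 7 genes with a promoter peak, promoter accessibility per kilobase was thus highest at Cdh15 and Sdc4 in both genotypes and lowest at Vcam1. Neighbours in these orders were not tested against each other.

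The DNA just before a start site shows what lies under these promoter peaks. RefSeq start windows (assembly GRCm38.p6) were matched for 6 of the 10 genes. Each of 4 motifs was searched on both strands in windows of 300 bases, which is 250 before and 50 after the start. They were the E-box CANNTG, the site read by MYOD and related factors, with 72.3% of 32851 windows holding at least 1 match; the GC box GGGCGG, with 35.7%; TGGGAA, the core that the Notch partner RBPJ reads, with 25.6%; and TATAAA, with 13.6%. The windows under the promoter peaks of Sdc4 and Spry1 are shown because they contrast in these motifs. The 250 bases before the start are given 5′ to 3′ on the gene's strand, with E-boxes and GC boxes in capitals, at chr2:164443189-164443438 (minus strand) for Sdc4 and chr3:37639697-37639946 (plus strand) for Spry1.
Sdc4: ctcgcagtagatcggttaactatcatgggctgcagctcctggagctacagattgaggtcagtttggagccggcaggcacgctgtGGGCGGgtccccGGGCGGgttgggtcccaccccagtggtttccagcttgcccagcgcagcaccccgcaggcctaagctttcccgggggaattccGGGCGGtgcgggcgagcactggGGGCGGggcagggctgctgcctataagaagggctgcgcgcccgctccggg
Spry1: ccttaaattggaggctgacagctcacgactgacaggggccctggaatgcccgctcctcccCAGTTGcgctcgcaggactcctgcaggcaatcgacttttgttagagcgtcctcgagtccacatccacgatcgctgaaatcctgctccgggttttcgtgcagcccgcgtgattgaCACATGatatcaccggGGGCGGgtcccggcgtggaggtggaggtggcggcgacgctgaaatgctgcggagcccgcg
The Sdc4 window held 4 GC boxes and 0 E-boxes, and 5.49% of all windows held 4 or more GC boxes. The Spry1 window held 2 E-boxes and 1 GC box. Cdh15, the gene of M-cadherin, held 4 E-boxes and 3 GC boxes, and 6.49% of all windows held 4 or more E-boxes. Stretches of 30 bases around the 4 Cdh15 E-boxes, on the plus strand, are shown with the E-box in capitals, at chr8:122848126-122848155, chr8:122848227-122848256, chr8:122848330-122848359 and chr8:122848360-122848389.
Cdh15 E-box 1: aggcactgatcaCATATGctgtcactcaga
Cdh15 E-box 2: caggcccacctaCATGTGctgtcactcatc
Cdh15 E-box 3: cgccccaccacaCACGTGcagtcccttggc
Cdh15 E-box 4: ctgctccccaagCACTTGcgctgtcactca
For Pax7 and Cdh15 the RefSeq start used for the window lies downstream of the start of the gene span in the deposited table, so these stretches fall inside that span. The Pax7 window held 0 E-boxes and 1 GC box, which is shown in capitals, as read on the minus strand at chr4:139833099-139833128.
Pax7 GC box: cttccactcctcCCGCCCccacctcacccc
Its GC content was 63.7% beside a median of 52.7% over all windows. None of these 4 windows held TGGGAA or TATAAA. A match describes letters in a window and shows no binding.

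Among the transcription factors, Pax7 (ENSMUSG00000028736, chromosome 4, 139737062 to 139833528 of GRCm38, minus strand) had 11 peaks, all of them tested. In Prr14-KO, 4 of its 8 intron peaks were higher, and at 6 of the 8 every Prr14-KO library lay above every Prr14-WT library. Over all tested intron peaks, 3.12% were higher, and 10.2% had every Prr14-KO library above every Prr14-WT library.
The Pax7 peak of smallest p, at 139770574 to 139771861 and 61789 bases into the gene, measured 8.23, 8.56 and 10 CPM in Prr14-WT and 19.4, 24.2 and 18.1 CPM in Prr14-KO. The lowest Prr14-KO library was well above the highest Prr14-WT library. The means were 8.93 ± 0.944 and 20.6 ± 3.22 CPM (SD, n = 3 each), and the log2 fold change was 1.21 (SE 0.22, edgeR adjusted p = 3.19e-06).
The peak with the largest change, at 139812984 to 139813905 and 19562 bases into the gene, measured 4.63, 6.44 and 5.53 CPM in Prr14-WT and 12.2, 14.7 and 13.9 CPM in Prr14-KO. Groups again did not overlap, with means of 5.53 ± 0.905 and 13.6 ± 1.27 CPM (SD, n = 3 each) and a log2 fold change of 1.30 (SE 0.24, edgeR adjusted p = 9.6e-06). The third intron peak, at 139797223 to 139797862 and 35464 bases in, held 4.53, 3.86 and 6.45 CPM in Prr14-WT and 9.51, 12.3 and 10.7 CPM in Prr14-KO. That was 4.95 ± 1.34 against 10.9 ± 1.41 CPM (SD, n = 3 each), and the log2 fold change was 1.15 (SE 0.26, edgeR adjusted p = 0.000367). These 3 peaks passed in each of the 12 alternative settings, with adjusted p-values of at most 0.0165.
The fourth, at 139744736 to 139745186 and 88046 bases in, measured 3.60, 5.06 and 4.21 CPM in Prr14-WT and 9.93, 7.4 and 6.59 CPM in Prr14-KO. Its log2 fold change was 0.88 (SE 0.28, edgeR adjusted p = 0.025), with means of 4.29 ± 0.733 and 7.97 ± 1.74 CPM (SD, n = 3 each). This call was lost with limma-voom (adjusted p = 0.0529), without Prr14-WT replicate 3 (0.146), without Prr14-KO replicate 4 (0.256) and without Prr14-KO replicate 5 (0.0642).

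At the other Pax7 intron peaks no call was made. At 11065 bases into the gene the log2 fold change was 0.70 (SE 0.31, edgeR adjusted p = 0.18), and at 85558 bases it was 0.57 (SE 0.27, edgeR adjusted p = 0.241). The groups did not overlap at either. At 27652 bases the log2 fold change was 0.58, at 22420 bases it was -0.27, and in both the libraries overlapped. The Pax7 promoter peak, at 139832537 to 139834066, measured 7, 8.74 and 13.0 CPM in Prr14-WT and 14.5, 16.0 and 10.7 CPM in Prr14-KO, so that Prr14-WT replicate 8 and Prr14-KO replicate 7 crossed. Its log2 fold change was 0.53 (SE 0.22, edgeR adjusted p = 0.154), and it passed only without Prr14-WT replicate 8, at an adjusted p of 0.0144. The 2 peaks upstream of the gene had log2 fold changes of -0.58 and 0.04, and neither passed.

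**Figure D2:**
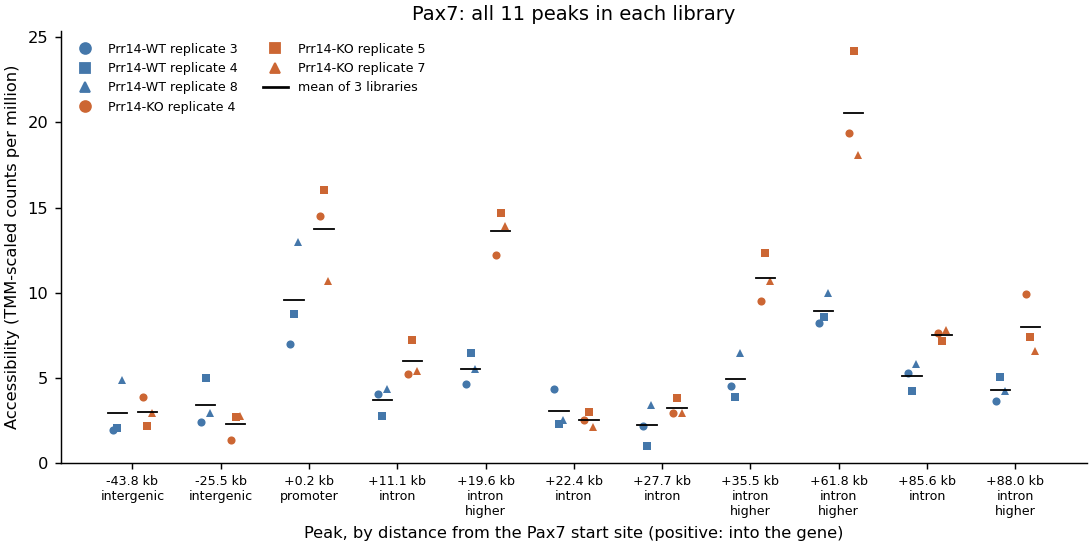
Accessibility in TMM-scaled CPM (vertical axis) of the 11 Pax7 peaks in each library, ordered by distance from the start site in kb (horizontal axis); blue marks are Prr14-WT, orange marks Prr14-KO, and black lines the means of 3 libraries. The peaks marked higher are intronic, and in the one of smallest p the Prr14-KO libraries reach 18.1 to 24.2 CPM against 8.23 to 10 CPM in Prr14-WT.

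Summed over all its peaks, Pax7 held 46.7, 50.1 and 65.7 CPM in Prr14-WT and 91.9, 99.7 and 80.7 CPM in Prr14-KO. All Prr14-KO libraries were above all Prr14-WT libraries, with means of 54.1 ± 10.1 and 90.8 ± 9.58 CPM (SD, n = 3 each). The log2 fold change was 0.75 (SE 0.13, edgeR adjusted p = 0.00148 over 15961 genes), which placed Pax7 at rank 131 by p. It passed in all 13 alternatives, with log2 fold changes of 0.66 to 0.99 and adjusted p-values of at most 0.0362. On summed counts 1.82% of genes were higher and 3.01% lower, and Pax7 was the only marker gene called. Within 500 kb of Pax7, 45 tested peaks belonged to 11 other genes, of which 3 peaks were higher and 2 lower, with a median log2 fold change of 0.09. The shares over all tested peaks were 2.77% higher and 4.23% lower. The called neighbours were peaks of Capzb, Slc66a1 and Ubr4.

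Pax3 (ENSMUSG00000004872, chromosome 1), the paralogue of Pax7 that acts in embryonic muscle precursors and in satellite cells of some adult muscles, had 8 peaks. None passed, and 6 of its 7 tested log2 fold changes were below 0. The promoter peak, at 78196446 to 78197312, measured 12.8, 11.8 and 9.48 CPM in Prr14-WT and 5.85, 8.96 and 10.4 CPM in Prr14-KO. Libraries overlapped, and the log2 fold change was -0.43 (SE 0.23, edgeR adjusted p = 0.344). Its smallest p was at an intron peak at 78148176, with 2.98, 4.14 and 6.85 CPM in Prr14-WT, 3.24, 1.89 and 3.57 CPM in Prr14-KO and a log2 fold change of -0.67 (SE 0.35, edgeR adjusted p = 0.315). Summed over its peaks, Pax3 held 34.9, 36.4 and 37.4 CPM in Prr14-WT and 25.5, 30 and 35.0 CPM in Prr14-KO, a log2 fold change of -0.26 (SE 0.14, edgeR adjusted p = 0.385). An intron peak at 78170580, at most 1.32 CPM in any library, was too low to test.

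Of the adhesion proteins, Cdh15 (ENSMUSG00000031962, chromosome 8), the M-cadherin that joins satellite cells to fibres, had 7 peaks and no call. The promoter peak, at 122848119 to 122849257, measured 22.8, 32.1 and 22.4 CPM in Prr14-WT and 20.6, 30.9 and 18.2 CPM in Prr14-KO. It is the peak over the 4 E-boxes shown above, and its libraries overlapped, with a log2 fold change of -0.15 (SE 0.19, edgeR adjusted p = 0.79) whose sign turned with the authors' factors. The smallest p was at 122825068 to 122825348, 22758 bases upstream, with 3.19, 5.89 and 4.21 CPM in Prr14-WT and 2.4, 2.22 and 2.29 CPM in Prr14-KO. There every Prr14-KO library was below every Prr14-WT library, but the log2 fold change of -0.95 (SE 0.37, edgeR adjusted p = 0.116) did not pass. RefSeq places this peak within the gene model Gm35466, as it does 2 further Cdh15 peaks, and the farthest upstream peak within Acsf3. Summed, Cdh15 held 57.4 ± 7.57 CPM in Prr14-WT and 50.6 ± 6.40 CPM in Prr14-KO (SD, n = 3 each), with an edgeR adjusted p of 0.549.

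Vcam1 (ENSMUSG00000027962, chromosome 3), a cell adhesion molecule that binds integrins on leukocytes and muscle cells, had 4 peaks, of which 3 were tested and none passed. The promoter peak, at 116128713 to 116129586, measured 5.56, 2.85 and 6.06 CPM in Prr14-WT and 4.5, 3.53 and 5.58 CPM in Prr14-KO. The values overlapped fully, with a log2 fold change of -0.07 (SE 0.31, edgeR adjusted p = 0.952). A peak at 116122013, classed as 3′ untranslated, measured 2.68, 1.01 and 2.50 CPM in Prr14-WT and 1.05, 0.822 and 0.732 CPM in Prr14-KO. Prr14-WT replicate 4 lay among the Prr14-KO libraries there, and the log2 fold change was -1.23 (SE 0.63, edgeR adjusted p = 0.296).

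Megf10 (ENSMUSG00000024593, chromosome 18), a transmembrane protein with EGF repeats that takes part in satellite cell proliferation, had 6 tested peaks. All 6 log2 fold changes were below 0, from -0.63 to -0.02, and none passed. The promoter peak, at 57132779 to 57133459, measured 9.98, 10.1 and 10.4 CPM in Prr14-WT and 7.74, 6.49 and 9.80 CPM in Prr14-KO. Groups did not overlap, and the log2 fold change was -0.35 (SE 0.24, edgeR adjusted p = 0.518). The smallest p was at an intron peak, at 57179271 to 57180125, with 5.45, 1.93 and 4.87 CPM in Prr14-WT, 3.24, 1.73 and 2.93 CPM in Prr14-KO and a log2 fold change of -0.63 (SE 0.38, edgeR adjusted p = 0.415). Summed, Megf10 held 29.6, 22.6 and 31.7 CPM in Prr14-WT and 23.5, 16.7 and 23.2 CPM in Prr14-KO, a log2 fold change of -0.40 (SE 0.17, edgeR adjusted p = 0.23). Around Megf10, 56 peaks of 7 other genes within 500 kb gave 1 higher and 7 lower calls and a median log2 fold change of -0.22. Around Vcam1 the same counts were 1 higher and 7 lower of 54 peaks, with a median of -0.17. All tested peaks were higher in 2.77% and lower in 4.23%, with a median of -0.01.

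Calcr (ENSMUSG00000023964, chromosome 6), the calcitonin receptor that keeps satellite cells quiescent, had 2 weak peaks. The intron peak, at 3741285 to 3741838, measured 3.50, 3.86 and 2.11 CPM in Prr14-WT and 1.88, 2.06 and 2.75 CPM in Prr14-KO. These overlapped, with a log2 fold change of -0.51 (SE 0.42, edgeR adjusted p = 0.622). Summed, Calcr held 4.81 ± 0.984 and 4.02 ± 0.743 CPM (SD, n = 3 each), with an edgeR adjusted p of 0.778.

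Sdc4 (ENSMUSG00000017009, chromosome 2), syndecan-4, which presents FGF and HGF to their receptors, had 5 peaks, of which 1 was higher. It lies in an intron at 164431916 to 164433522, 10467 bases into the gene, and measured 23.3, 37.6 and 35.0 CPM in Prr14-WT and 53.2, 51.9 and 40.5 CPM in Prr14-KO. The groups did not overlap, with means of 32.0 ± 7.66 and 48.5 ± 7.01 CPM (SD, n = 3 each) and a log2 fold change of 0.60 (SE 0.18, edgeR adjusted p = 0.0194). The call was lost with the authors' factors (adjusted p = 0.19), without Prr14-WT replicate 3 (0.288), without Prr14-KO replicate 4 (0.14) and without Prr14-KO replicate 5 (0.144).
The promoter peak over the 4 GC boxes shown above, at 164441227 to 164443702, measured 55.6, 55.0 and 50.5 CPM in Prr14-WT and 52.2, 60.7 and 63.9 CPM in Prr14-KO. It gave a log2 fold change of 0.13 (SE 0.18, edgeR adjusted p = 0.798). Summed, Sdc4 held 142 ± 21.0 and 176 ± 15.9 CPM (SD, n = 3 each), with a log2 fold change of 0.31 (SE 0.12, edgeR adjusted p = 0.197).

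Spry1 (ENSMUSG00000037211, chromosome 3), an inhibitor of receptor tyrosine kinase signalling that satellite cells need to return to quiescence, had 5 peaks and no call. The promoter peak, at 37639671 to 37641211, measured 23.0, 15 and 17.2 CPM in Prr14-WT and 17.0, 22.5 and 25.9 CPM in Prr14-KO. Libraries overlapped, with a log2 fold change of 0.25 (SE 0.20, edgeR adjusted p = 0.61). The peak of smallest p, at 37642732, had a log2 fold change of -0.29 (SE 0.23, edgeR adjusted p = 0.599). The summed counts were 53.1 ± 8.76 and 55.5 ± 7.03 CPM (SD, n = 3 each).

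In the Notch pathway, Notch3 (ENSMUSG00000038146, chromosome 17), the receptor found on satellite cells and vessel wall cells, had 7 peaks, of which 1 was higher. It lies beyond the end of the gene, at 32110413 to 32111373 and 55987 bases from the start site, within the RefSeq gene model Gm30729. It measured 3.91, 4.23 and 5.40 CPM in Prr14-WT and 9.83, 8.63 and 6.50 CPM in Prr14-KO. Groups did not overlap, with means of 4.51 ± 0.782 and 8.32 ± 1.69 CPM (SD, n = 3 each), and the log2 fold change was 0.89 (SE 0.27, edgeR adjusted p = 0.0207). Leaving out Prr14-WT replicate 3 (adjusted p = 0.118), Prr14-WT replicate 4 (0.0602), Prr14-KO replicate 4 (0.181) or Prr14-KO replicate 5 (0.104) ended the call. The other 6 Notch3 peaks had log2 fold changes of -0.47 to 0.47. Summed, Notch3 held 62.0 ± 5.90 and 64.3 ± 3.90 CPM (SD, n = 3 each), an edgeR adjusted p of 0.885.

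Heyl (ENSMUSG00000032744, chromosome 4, 123233556 to 123249875, plus strand), a target of Notch that represses transcription, had 3 higher peaks of 7. The strongest call was in an intron at 123236929 to 123238319, 4068 bases into the gene, with 15.1, 15.8 and 20 CPM in Prr14-WT and 24.4, 34.9 and 25.2 CPM in Prr14-KO. Every Prr14-KO library was above every Prr14-WT library, with means of 17.0 ± 2.64 and 28.1 ± 5.84 CPM (SD, n = 3 each) and a log2 fold change of 0.74 (SE 0.20, edgeR adjusted p = 0.00555).
A peak classed as 3′ untranslated, at 123246788 to 123247755, measured 11.9, 14.7 and 12.8 CPM in Prr14-WT and 24.8, 22.2 and 15.7 CPM in Prr14-KO. The groups did not overlap, with means of 13.1 ± 1.43 and 20.9 ± 4.70 CPM (SD, n = 3 each), and the log2 fold change was 0.66 (SE 0.21, edgeR adjusted p = 0.0243). An intergenic peak at 123225601 to 123226633, 7439 bases upstream, measured 25.5, 29.4 and 24.5 CPM in Prr14-WT and 33.5, 42.2 and 40.6 CPM in Prr14-KO. It passed narrowly, from 26.5 ± 2.62 to 38.8 ± 4.65 CPM (SD, n = 3 each), with a log2 fold change of 0.55 (SE 0.19, edgeR adjusted p = 0.0479).
All 3 Heyl calls were lost with the authors' factors (adjusted p = 0.0687, 0.129 and 0.237 in the same order), without Prr14-WT replicate 3 (0.0538, 0.12 and 0.144) and without Prr14-KO replicate 5 (0.197, 0.139 and 0.253). The 3′ untranslated and intergenic peaks were also lost without Prr14-KO replicate 4 (0.248 and 0.0504), and the intergenic one without Prr14-WT replicate 8 (0.0515) and without Prr14-KO replicate 7 (0.109).

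Summed over its peaks, Heyl held 118, 134 and 126 CPM in Prr14-WT and 167, 173 and 146 CPM in Prr14-KO. The groups did not overlap, but the log2 fold change of 0.36 (SE 0.11, edgeR adjusted p = 0.0717) missed the threshold. It passed with DESeq2 (adjusted p = 0.0375), with total counts (0.0184) and without Prr14-WT replicate 4 (0.0304). Within 500 kb of Heyl, which shares chromosome 4 with Pax7, 51 peaks of other genes gave 2 higher and 1 lower call and a median log2 fold change of 0.21. Higher and lower calls were 4 and 0 of 85 around Notch3, and 1 and 0 of 52 around Sdc4. They were 0 and 1 of 81 around Cdh15, of 45 around Spry1 and of 20 around Pax3, and 0 and 0 of 7 around Calcr. Among all tested peaks 2.77% were higher and 4.23% lower.

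**Figure D3:**
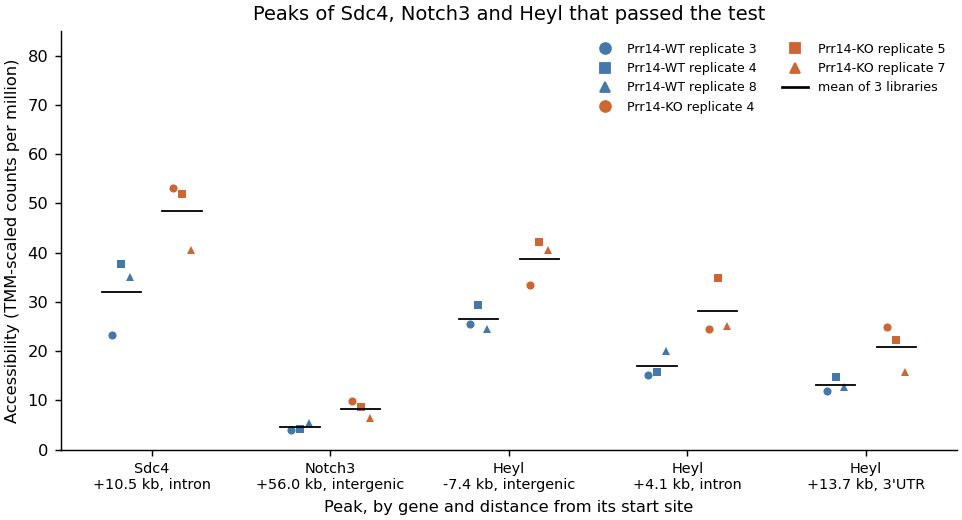
Accessibility in TMM-scaled CPM (vertical axis) of the 5 higher peaks of Sdc4, Notch3 and Heyl in each library; labels on the horizontal axis give the gene, the distance from its start site in kb and the class of the peak, and black lines are means of 3 libraries. At each of the 5 peaks the Prr14-KO libraries lie above the Prr14-WT libraries, with 14.7 and 15.7 CPM as the nearest values at the Heyl peak 13.7 kb from the start site.

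**Figure D4:**
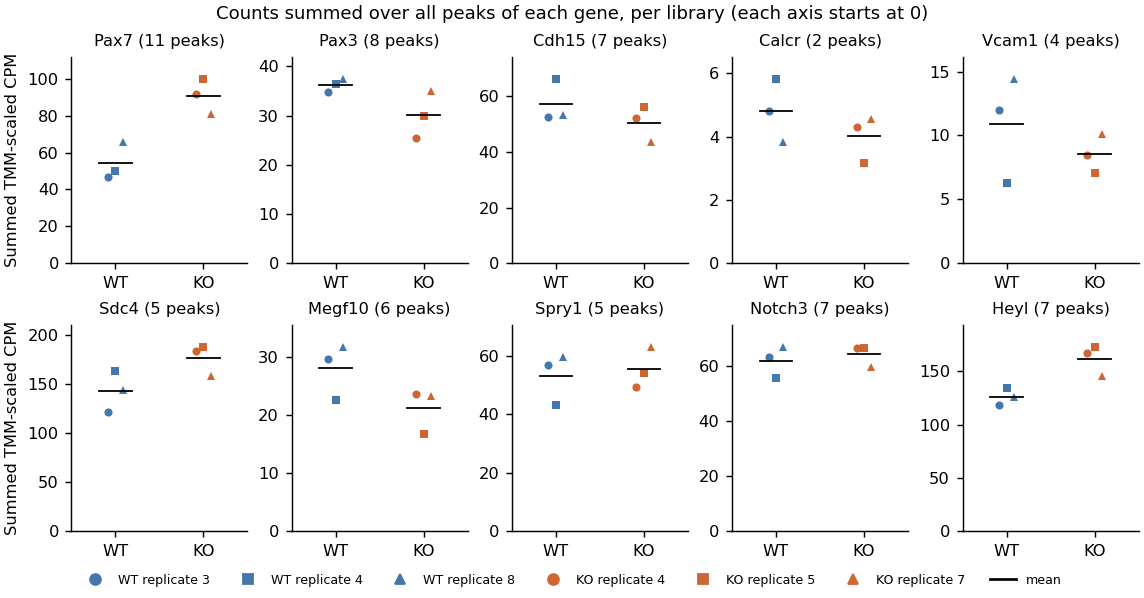
TMM-scaled CPM summed over all peaks of each gene (vertical axis, from 0) in the 3 Prr14-WT and 3 Prr14-KO libraries (horizontal axis); black lines are means. The groups separate for Pax7 (46.7 to 65.7 against 80.7 to 99.7 CPM) and Heyl (118 to 134 against 146 to 173 CPM) and overlap for the other 8 genes. The share of all genes that separate was not computed. Over all tested peaks, every Prr14-KO library lay above every Prr14-WT library at 9.17% and below at 11.2%.

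In the authors' deposited table, 57 of the 62 peaks carry an adjusted p, of which 6 were higher and 0 lower at 0.05. Over all peaks of the authors' deposited table, 2.44% of those with an adjusted p were higher and 0.872% lower. The 6 were the same 4 Pax7 intron peaks, the Notch3 peak at 32110413 and the Heyl intron peak. For the Pax7 peak at 61789 bases the authors' deposited table gives a log2 fold change of 1.43 and an adjusted p of 0.000133. The median of the authors' deposited log2 fold changes was 0.24 over the marker peaks and 0.19 over all peaks. The authors' library factors ran only from 0.977 to 1.04, far less than the counts in peaks, so depth was largely uncorrected there.

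Genes of the same pathways were listed to see how the surroundings of these markers behaved. The lists were chosen with earlier results of these data known. Counts in these lists are to be read beside 2.77% higher and 4.23% lower over all tested peaks. On summed counts the shares were 1.82% and 3.01% of all tested genes. In the Notch pathway, 23 of 24 listed ligands, receptors, cofactors and targets had a peak. Of their 189 tested peaks 3 were higher and 3 lower, the median log2 fold change was 0.03, and none of the 23 genes passed on summed counts. Jag1, a Notch ligand, had a log2 fold change of -0.20 (edgeR adjusted p = 0.472).
Among 26 other genes used for satellite cells, 25 had a peak, and of 262 tested peaks 3 were higher and 9 lower, with a median of -0.01. None of the 25 genes passed on summed counts. Met, the HGF receptor, held 111 ± 10.6 against 87.6 ± 4.73 CPM (SD, n = 3 each; log2 fold change -0.35, edgeR adjusted p = 0.0782), and Fzd7, a Wnt receptor, 205 ± 24.8 against 162 ± 12.3 CPM (-0.34, edgeR adjusted p = 0.121). Both passed as lower without Prr14-WT replicate 8 (adjusted p = 0.0389 and 0.0483). The promoter peak of Myf5, the myogenic factor expressed in many satellite cells, was chosen after its values were seen and had a log2 fold change of -0.17 (edgeR adjusted p = 0.792).

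For FGF, HGF and ERK signalling with its inhibitors, 0 of 159 tested peaks were higher and 8 lower, with a median of 0.01. None of 20 genes passed on summed counts. Of all tested peaks, 2.77% were higher and 4.23% lower. Fgf2, a growth factor for satellite cells, held 159 ± 21.2 against 123 ± 2.22 CPM (SD, n = 3 each; log2 fold change -0.37, edgeR adjusted p = 0.0734). It passed as lower with DESeq2 (adjusted p = 0.0324) and without Prr14-WT replicate 8 (0.0427).
In the adhesion list of 10 genes, 5 of 103 tested peaks were higher and 3 lower, with a median of -0.06, and 2 genes were lower on summed counts. Itga4, an integrin chain that binds VCAM1, fell from 44.9 ± 7.89 to 23.1 ± 2.52 CPM (SD, n = 3 each; log2 fold change -0.96, SE 0.15, edgeR adjusted p = 0.000507). That call ended with the authors' factors (adjusted p = 0.213) and with peaks within 100 kb only (0.309). Megf11, the paralogue of Megf10, fell from 26.1 ± 4.33 to 16.0 ± 3.44 CPM (SD, n = 3 each; log2 fold change -0.71, SE 0.18, edgeR adjusted p = 0.0231). It lost the call with the authors' factors (0.562), without Prr14-WT replicate 4 (0.0849), without Prr14-KO replicate 4 (0.0681) and without Prr14-KO replicate 7 (0.113).

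Markers of the other cells in the muscle were measured in the same libraries. All 12 myofibre genes had a promoter peak, whose summed level was 889 to 1400 CPM in Prr14-WT and 1000 to 1080 CPM in Prr14-KO. Of the 129 tested myofibre peaks 0 were higher and 22 lower, with a median log2 fold change of -0.39. Ttn alone held 62 of these peaks, and 7 of the lower calls were at Myh4, 6 at Ttn and 4 at Dmd. The median over the 12 myofibre promoter peaks was -0.12. For this and the next lists, the shares over all tested peaks were 2.77% higher and 4.23% lower, with a median of -0.01. Among the myofibre genes, the promoter peak of Myh4, the fast IIb myosin, fell by 1.08 on the log2 scale (edgeR adjusted p = 3.95e-07), and that of Dmd, dystrophin, fell by 1.14 (edgeR adjusted p = 0.00699). Among myogenic factors and embryonic muscle genes, 1 of 88 peaks was higher and 13 lower, with a median of -0.20, and the promoter peak of Myf6, the factor of mature fibres, fell by 0.95 (edgeR adjusted p = 2.01e-05). None of the Myh4, Dmd and Myf6 calls held with the authors' factors (adjusted p = 0.104, 0.0885 and 0.215). Those factors varied far less between libraries than the counts in peaks did. The Myh4 and Myf6 calls each held in 11 of 12 alternatives. The Dmd call also ended without Prr14-WT replicate 4 (0.169), without Prr14-KO replicate 5 (0.0775) and without Prr14-KO replicate 7 (0.101).
Vessel markers matter here because Notch3, Heyl, Sdc4 and Vcam1 are also active in vessels. Endothelial promoters (7 of 10 genes, without Pecam1, Emcn and Vwf) summed to 44.8 to 66.5 CPM in Prr14-WT and 48.1 to 70.5 CPM in Prr14-KO, with 3 of 72 peaks higher, 4 lower and a median of -0.10. The promoter peak of Cldn5, a tight junction protein of endothelium, rose by 0.71 on the log2 scale (edgeR adjusted p = 0.00594). That call ended with the authors' factors (0.0771), without Prr14-WT replicate 4 (0.0627) and without Prr14-KO replicate 5 (0.313). Promoters of pericytes and smooth muscle (9 of 11 genes) summed to 136 to 141 CPM in Prr14-WT and 120 to 136 CPM in Prr14-KO, with 2 of 41 peaks higher and 0 lower.
Schwann cell promoters (3 of 6 genes) summed to 26.8 to 35.7 CPM in Prr14-WT and 33.8 to 40.2 CPM in Prr14-KO, with 1 of 20 peaks higher. Fibro-adipogenic progenitor promoters (10 of 10 genes) summed to 118 to 147 CPM in Prr14-WT and 117 to 148 CPM in Prr14-KO, with 1 of 79 peaks lower. Macrophage promoters (3 of 9 genes) summed to 39.4 to 45.6 CPM in Prr14-WT and 36.3 to 38.6 CPM in Prr14-KO, with 1 of 23 peaks lower and no peak at Cd68, C1qa and Lyz2. In comparison, the 7 promoter peaks of the satellite cell markers (without Calcr, Notch3 and Heyl) summed to 129 to 137 CPM in Prr14-WT and 122 to 149 CPM in Prr14-KO. Sdc4, also used by other cells, was the largest part, with means of 53.7 CPM in Prr14-WT and 58.9 CPM in Prr14-KO. The Pax7 means were 9.59 and 13.8 CPM and the Pax3 means 11.3 and 8.42 CPM in the same order, and neither promoter peak passed. Of 10 genes of other tissues 2 had a promoter peak, and of 10 tested peaks of that list none was called.
On summed counts, 3 myofibre genes (Myh1, Myh4 and Dmd), 3 myogenic and embryonic genes (Myh3, Eya1 and Myf6) and 2 endothelial genes (Erg and Emcn) were lower and Cldn5 was higher; these names were chosen after their values were seen. No gene of the other 5 cell type and tissue lists passed on summed counts. The smallest p-values there were at Cnn1 (log2 fold change 0.85, edgeR adjusted p = 0.141) and Rgs5 (-0.43, 0.22) of pericytes and smooth muscle, and Osr1 (-0.21, 0.376) and Dpt (-0.13, 0.653) of fibro-adipogenic progenitors. For macrophages they were at Mrc1 (log2 fold change -0.33, edgeR adjusted p = 0.23) and Itgam (-1.05, 0.425), for Schwann cells at S100b (0.69, 0.161) and Sox10 (0.42, 0.268), and for other tissues at Ins2 (-0.32, 0.288) and Gfap (0.21, 0.713). The part of the other cell types in the changes at Pax7, Heyl, Sdc4 and Notch3 was not tested.

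The 6 libraries held 7608514 to 12061822 counts within peaks. The promoter peak of Prr14 itself, chromosome 7, 127470286 to 127472182, held 62.3, 66.5 and 57.1 CPM in Prr14-WT and 51.2, 59.7 and 70.7 CPM in Prr14-KO. As the deleted part of Prr14 is not given, this peak checks nothing about the labels.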

How the data were processed

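ATAC-seq was run on 3 Prr14-KO and 3 Prr14-WT libraries. Per the submitters' processing notes, the build was GRCm38 and the tools were DESeq2 1.6.3, MACS2, BWA, Trimmomatic, bedtools and deepTools, without roles. How reads were shifted, deduplicated and counted is not stated in those notes or in the labels. The authors deposited 1 common peak list with whole-number counts per peak and library. Per the file headers, the same table holds the authors' normalized signal (the count divided by 1 factor per library), the log2 fold change, p-values, a test score, and each peak's gene, class and distance from its start site.

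Counts were tested with edgeR 4.0.16 in R 4.3.3 (quasi-likelihood, two-sided, TMM, filterByExpr with minimum count 10 and minimum total 15), which left 73896 peaks. Counts summed over all peaks of a gene were tested the same way. SE is the log2 fold change over the square root of F. The test was also run on simulated data (73375 peaks), in which 40 peaks were given each size of change. There 15% of gains of 1.5 times were recovered, 62.5% of 2 times and 100% of 4 times. Of losses to 0.5, 42.5% were recovered, and 5 of 133 calls were false. No pair of libraries of a group agreed within sampling noise, and the labels name no batch.

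The genes named were every marker's promoter peak, every called peak or else the one of smallest p, and from each list the called promoters (at most 4) or the 2 genes of smallest p on summed counts; some genes under this rule are not reported here. Markers and lists were chosen with earlier results of these data known. Alternatives were DESeq2 1.42.0, the authors' factors, total counts, no filter, a stricter filter (1 CPM in 3 libraries), limma-voom (limma 3.58.1), peaks within 3 or 100 kb, each library left out and, added after seeing the data, the authors' deposited table.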

Additional observations from a re-analysis of the deposited data

How the results depend on the processing

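Higher marker peaks numbered 9 at first, 5 with the authors' factors, 0 among peaks within 3 kb of a start site, and 3 to 9 with 1 library left out (3 without Prr14-WT replicate 3 or Prr14-KO replicate 5, 4 without Prr14-KO replicate 4). The original 9 kept at most 8 calls with 1 library left out; the Sdc4 peak at 164436366 was gained without Prr14-WT replicate 4 and the Pax7 promoter without Prr14-WT replicate 8. The count was 9 with DESeq2, total counts, no filter and the stricter filter, 8 with limma-voom and 6 in the authors' deposited table, and no marker peak was lower in any of these settings. Marker genes higher on summed counts were 1 at first, 2 with DESeq2, 3 with total counts and 1 to 3 with 1 library left out (3 without Prr14-WT replicate 4). Scaling with the authors' factors moved the median log2 fold change of all peaks from -0.01 to 0.19 and that of the marker peaks from 0.01 to 0.24, and calls over all peaks went from 2049 higher and 3128 lower to 1620 and 752. The authors' factors ran from 0.977 to 1.04 across the libraries, whereas counts in peaks ran from 7608514 to 12061822. Depth was thus left largely uncorrected. Under that scaling, signs turned for Cdh15 (summed 0.02, promoter 0.04), the Vcam1 promoter (0.16), and the summed counts of Jag1 (0.04), Osr1 (0.02) and Dpt (0.08). With 1 library left out, the Cdh15 promoter ranged from -0.38 to 0.07 and the Vcam1 promoter from -0.33 to 0.16. The Vcam1 promoter turned also with limma-voom (0.00), without Prr14-WT replicate 3 (0.07), without Prr14-WT replicate 8 (0.16) and without Prr14-KO replicate 5 (0.12). Without Prr14-WT replicate 4, Cdh15 promoter (0.07), Notch3 summed (-0.02) and Spry1 summed (-0.07) turned, as did Cdh15 promoter (0.02) and Spry1 summed (-0.03) without Prr14-KO replicate 7. The cause was not tested. Sdc4 on summed counts passed with total counts (adjusted p = 0.0485) and without Prr14-WT replicate 4 (0.0335). No paired analysis was possible because the groups share 1 replicate number. In simulation over all peaks, changes of 1.5 times were mostly missed, but only 40 peaks were given each size of change. With 133 calls, its adjustment set a stricter cut than in the real data. Its recovery therefore does not carry over to these data.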
